A study of Mus musculus with 12 samples.

Results

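Genes that mark the thalamus and the striatum, neighbours of the hippocampus in the forebrain, were followed through hippocampal RNA of mice lacking NONO (NONO KO) and wild-type (WT) mice. The 9 genes were taken by symbol, and their counts summed per symbol in each library: Tcf7l2, Lef1, Prkcd and Slc17a6 for the thalamus, and Drd1a, Drd2, Adora2a, Rgs9 and Ppp1r1b for the striatum. All 9 were found among the 23329 gene symbols of the deposited libraries, and all 9 passed the filter on low counts that left 14131 genes for testing. Both genotypes are adult C57BL/6 mice, each sampled under the labels CT10 and CT22, whose meaning the labels leave unstated. The 4 groups, NONO KO at CT10, WT at CT10, NONO KO at CT22 and WT at CT22, have 3 libraries each, 12 in all. No treatment is named, and the sources used here do not give the allele by which NONO is lost. The labels do not say whether each library is its own animal. The p-values therefore speak only to variation among these libraries, part of which could be technical.

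TCF7L2 and LEF1 are DNA-binding partners of beta-catenin, the effector of Wnt signalling, and both stay on in thalamic neurons of the adult brain. PRKCD is a diacylglycerol-activated kinase abundant in thalamic relay neurons, and SLC17A6 (VGLUT2) loads glutamate into synaptic vesicles of subcortical excitatory neurons, where hippocampal pyramidal cells use SLC17A7. In the striatum, medium spiny neurons carry either the dopamine receptor encoded by Drd1a, which raises cAMP, or the one encoded by Drd2, which lowers it, and the cells with Drd2 also carry the adenosine receptor ADORA2A. RGS9 shortens the signal of inhibitory G proteins, such as those behind the Drd2 receptor. PPP1R1B (DARPP) is phosphorylated downstream of cAMP and then inhibits a protein phosphatase. None of these genes is fully private to its tissue: Drd2 is known from hilar mossy cells, Lef1 from endothelium and Tcf7l2 from differentiating oligodendrocytes.

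Promoter sequence is shown for Drd1a and for 3 genes whose level correlated with it across libraries, to show what these promoters have and lack in common. RefSeq promoters were on hand for 7 of the 9 genes, and for 5 the start matched that of the deposited transcripts. Each line gives the 250 bases before the start, 5′ to 3′, in build GRCm38.p6. Capitals mark a GC box (GGGCGG), the core of a cAMP response element (TGACG), a TCF/LEF motif (ATCAAAG) or a TATA motif (TATAAA), on either strand.
Tcf7l2, chr19:55741560-55741809, plus strand: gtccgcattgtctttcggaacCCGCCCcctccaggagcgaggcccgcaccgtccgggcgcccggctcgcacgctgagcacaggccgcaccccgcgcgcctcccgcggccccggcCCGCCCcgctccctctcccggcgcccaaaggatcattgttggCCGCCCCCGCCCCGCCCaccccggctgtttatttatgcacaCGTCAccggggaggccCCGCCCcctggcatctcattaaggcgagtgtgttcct
Slc17a6, chr7:51621580-51621829, plus strand: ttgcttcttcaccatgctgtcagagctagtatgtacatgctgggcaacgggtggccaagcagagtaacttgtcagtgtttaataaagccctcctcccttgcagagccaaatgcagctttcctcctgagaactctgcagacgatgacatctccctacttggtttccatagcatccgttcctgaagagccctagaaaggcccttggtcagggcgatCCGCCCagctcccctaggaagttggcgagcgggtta
Drd1a, chr13:54055659-54055908, minus strand: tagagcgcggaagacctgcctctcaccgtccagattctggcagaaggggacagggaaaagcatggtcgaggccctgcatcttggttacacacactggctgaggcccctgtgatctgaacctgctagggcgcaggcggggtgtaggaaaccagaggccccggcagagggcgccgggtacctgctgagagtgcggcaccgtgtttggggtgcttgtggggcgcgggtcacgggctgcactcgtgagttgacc
Rgs9, chr11:109298182-109298431, minus strand: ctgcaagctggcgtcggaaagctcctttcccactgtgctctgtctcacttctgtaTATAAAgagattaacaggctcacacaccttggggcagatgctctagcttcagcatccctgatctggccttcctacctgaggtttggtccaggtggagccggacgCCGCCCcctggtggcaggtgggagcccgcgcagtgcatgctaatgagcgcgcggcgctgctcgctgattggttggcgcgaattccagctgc

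The 4 promoters had no motif in common. The Tcf7l2 window held 6 GC boxes and 1 cAMP response element core, the Slc17a6 window 1 GC box, the Rgs9 window 1 GC box and 1 TATA motif, and the Drd1a window none of the 4 motifs. The fifth matched promoter, of Prkcd, held 4 GC boxes and 1 TATA motif. Among 32851 mouse promoters of the same length, 32.7% held a GC box, 17.8% the cAMP response element core, 3.21% the TCF/LEF motif and 12.4% the TATA motif. The GC content of the windows was 72.8% for Tcf7l2, 67.6% for Prkcd, 64.0% for Drd1a, 59.6% for Rgs9 and 53.2% for Slc17a6, against a mean of 52.4% over all promoters.

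The shallowest library, NONO KO CT22 replicate 2, had 4435596 counts and carries the largest counting error, and the deepest, WT CT22 replicate 3, had 10911031. Levels are CPM, counts set to a common library total after TMM scaling, unless stated otherwise. Nono itself stood at 0.29 ± 0.244 CPM in NONO KO libraries and 163 ± 7.38 CPM in WT libraries (SD, n = 6 each), and no library went against its genotype label. The neuronal genes Slc17a7, Neurod6 and Prox1, which mark hippocampal excitatory cells, were read in every library, Slc17a7 at 1489 to 1990 CPM. The clock gene Dbp went against 2 time labels. The library labelled NONO KO CT10 replicate 3 stood at 33.6 CPM, against 93.7 and 106 CPM in the rest of that group, and the library labelled NONO KO CT22 replicate 1 stood at 90.9 CPM, against 32.3 and 32.9 CPM. Some of the log2 changes within and between the time labels are therefore also given without them. The correlations, spreads within groups, genes of like pattern and transcript shares are not given without both.

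Per transcript length, the 9 genes spanned a wide range of low to moderate levels. Ppp1r1b had the highest median over the 12 libraries, 84.3 TPM (the authors' unit, corrected for length), above 82.3% of the genes tested. Prkcd followed at 29.6 TPM and Rgs9 at 14.6 TPM. The other genes had medians of 5.73 TPM for Slc17a6, 5.08 for Lef1, 2.995 for Drd2, 2.90 for Drd1a, 2.78 for Tcf7l2 and 2.37 for Adora2a, the last above 9.07% of genes. Only the step between Ppp1r1b and Prkcd separated neighbours in every library, and the ranges of all other neighbours overlapped.

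**Figure D1:**
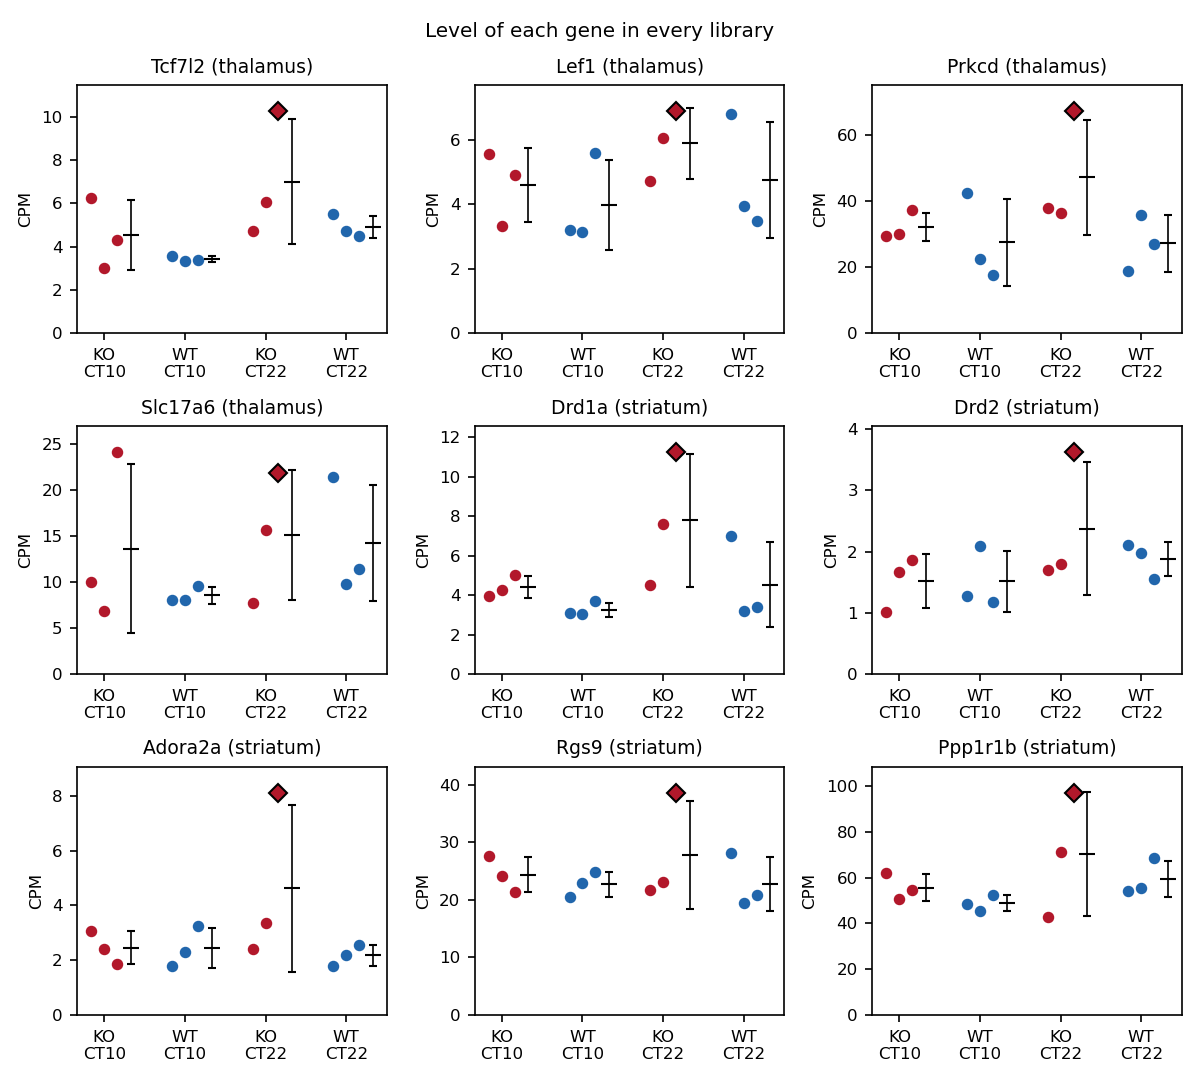
Level in CPM (vertical axes, from 0) of the 9 genes in every library, by group: NONO KO in red, WT in blue, with mean and SD as black bars (n = 3) and NONO KO CT22 replicate 3 as a diamond. The diamond is the highest point for 8 of the 9 genes, and for Slc17a6 it lies below the library labelled NONO KO CT10 replicate 3.

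Tcf7l2 (chromosome 19, 55741810 to 55933655, plus strand, mm10) was read at 6.23, 3.03 and 4.31 CPM in the NONO KO libraries at CT10, against 3.58, 3.33 and 3.38 CPM in WT. At CT22 it stood at 4.71, 6.05 and 10.3 CPM in NONO KO and at 5.50, 4.72 and 4.49 CPM in WT. The groups overlapped at both labels, and NONO KO CT22 replicate 3 was highest. Over both labels the mean was 5.77 ± 2.50 CPM in NONO KO and 4.17 ± 0.879 CPM in WT (SD, n = 6 each), a log2 change of 0.47 (SE 0.21) that did not pass edgeR's quasi-likelihood test with Benjamini-Hochberg adjustment (adjusted p = 0.762). The change was 0.26 (SE 0.19, edgeR adjusted p = 0.814) without that library. In bulk tissue, fewer cells of a type and less RNA per cell cannot be told apart, here or for any gene below.

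Lef1 (chromosome 3, 131110471 to 131223331, plus strand) ranged from 3.33 to 6.89 CPM in NONO KO libraries and from 3.12 to 6.80 CPM in WT libraries. Its log2 change was 0.27 (SE 0.22, edgeR adjusted p = 0.849), and the genotypes covered nearly the same range.

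Prkcd (chromosome 14, 30595354 to 30626208, minus strand) stood at 29.4, 29.99 and 37.2 CPM in NONO KO at CT10 and at 42.4, 22.4 and 17.6 CPM in WT. At CT22 the NONO KO libraries held 38.0, 36.3 and 67.3 CPM and the WT libraries 18.7, 35.9 and 27.1 CPM. Every NONO KO library at CT22 thus lay above every WT library, though the lowest NONO KO and the highest WT library differed by less than the SD within either group. Over all genes tested, 7.25% had every NONO KO library above every WT library at CT22. The CT22 difference was 0.81 on the log2 scale (SE 0.36, 95% interval 0.00 to 1.61, edgeR adjusted p = 0.456), and 0.45 without NONO KO CT22 replicate 3 (adjusted p = 0.628).

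Slc17a6 (chromosome 7, 51621830 to 51671126, plus strand) was read at 9.97, 6.82 and 24.1 CPM in NONO KO at CT10 and at 8.05, 8.02 and 9.55 CPM in WT. At CT22 it stood at 7.72, 15.7 and 21.9 CPM in NONO KO, against 21.4, 9.77 and 11.5 CPM in WT. The highest values were in 3 libraries: the library labelled NONO KO CT10 replicate 3, NONO KO CT22 replicate 3 and WT CT22 replicate 1. The last 2 of these were also the highest for Lef1. The CT10 difference was 0.70 (SE 0.53, edgeR adjusted p = 1.0) and turned to −0.00546 without the libraries labelled NONO KO CT10 replicate 3 and NONO KO CT22 replicate 1.

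Drd1a (chromosome 13, 54051183 to 54055658, minus strand; now named Drd1) was read at 3.97, 4.24 and 5.01 CPM in NONO KO at CT10, all above the 3.07, 3.02 and 3.67 CPM of WT. Over all genes, 4.9% had every NONO KO library above every WT library at CT10. At CT22 the values were 4.51, 7.62 and 11.2 CPM in NONO KO and 7.003, 3.18 and 3.39 CPM in WT, and the groups overlapped. Over both labels the log2 change was 0.61 (SE 0.25, 95% interval 0.08 to 1.14), the largest of the 9, with an edgeR adjusted p of 0.727. Without NONO KO CT22 replicate 3 it was 0.40 (SE 0.23, adjusted p = 0.778).

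Drd2 (chromosome 9, 49340662 to 49407214, plus strand) was the most thinly counted gene, with 8 to 30 counts in a library. The 30 counts of NONO KO CT22 replicate 3 have a 95% exact Poisson interval of 20.2 to 42.8, which covers counting error only. Between genotypes it stood at 1.95 ± 0.876 CPM in NONO KO and 1.70 ± 0.414 CPM in WT (SD, n = 6 each), and the log2 change of 0.16 (SE 0.27, edgeR adjusted p = 0.936) became −0.07 without that library.

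Adora2a (chromosome 10, 75316943 to 75334788, plus strand) showed the largest single excursion. NONO KO CT22 replicate 3 held 67 counts, or 8.09 CPM, which is 3.37 times the median of the other 11 libraries. The remaining NONO KO libraries stood at 3.06, 2.42 and 1.86 CPM at CT10 and 2.40 and 3.36 CPM at CT22, against 1.79, 2.29 and 3.23 CPM in WT at CT10 and 1.80, 2.20 and 2.57 CPM in WT at CT22. Those 11 libraries overlapped fully between genotypes at CT10, and at CT22 the lower NONO KO library lay within the WT range. The CT22 difference of 1.09 (SE 0.40, edgeR adjusted p = 0.405) was 0.34 (SE 0.35) without the 1 library.

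Rgs9 (chromosome 11, 109225355 to 109298181, minus strand) was the steadiest of the genes, at 27.5, 24.1 and 21.4 CPM in NONO KO at CT10 and 20.4, 22.9 and 24.8 CPM in WT. At CT22 it stood at 21.6, 23.1 and 38.5 CPM in NONO KO and 28.1, 19.4 and 20.8 CPM in WT. Leaving aside the 38.5 CPM of NONO KO CT22 replicate 3, all libraries lay between 19.4 and 28.1 CPM. Over both labels the log2 change was 0.20 (SE 0.15, edgeR adjusted p = 0.838), and 0.03 (SE 0.11) without that library.

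Ppp1r1b (chromosome 11, 98348738 to 98357795, plus strand) is the gene with the best counting precision, at 318 to 802 counts. It was read at 61.9, 50.6 and 54.5 CPM in NONO KO at CT10 and at 48.7, 45.3 and 52.3 CPM in WT. At CT22 it stood at 42.8, 71.3 and 96.9 CPM in NONO KO, which holds both the lowest and the highest value of the 12, and at 54.1, 55.4 and 68.7 CPM in WT. Its log2 change was 0.22 (SE 0.16, edgeR adjusted p = 0.843), and 0.05 (SE 0.12) without NONO KO CT22 replicate 3. On the opposite strand it overlaps 1700003D09Rik, and as the sources used here do not say whether counting used the strand, its reads may include some of that gene.

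Within groups the genes spread more than genes of like level. The coefficient of variation within groups ran from 22.8% for Rgs9 to 54.9% for Adora2a, and for all 9 genes it exceeded the median of the genes whose mean lay within 25% of theirs. For Slc17a6 it was 51.5%, against a median of 13.8% over 1314 such genes, and for Ppp1r1b 24.8%, against 8.89% over 1591. For Drd2 it was 35.8%, against 31.5%. For all but Lef1 and Slc17a6 the SD was largest in NONO KO at CT22, which holds NONO KO CT22 replicate 3. For Adora2a the SD was 3.05 CPM in that group and 0.383 to 0.732 CPM in the others. The coefficient was not recomputed without that library.

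A single library was high for most of the 9 genes. NONO KO CT22 replicate 3 was the highest of the 12 for 8 of the 9 genes, 3 thalamic and 5 striatal, whereas 11.2% of all genes tested had their highest value there. Relative to the median of the other 11 libraries, it stood at 1.46 to 3.37 times for the 9 genes, with a median of 2.24. Over all genes that ratio had a median of 1.00, and a range of 0.74 to 1.57 between the 5th and 95th percentiles. The second highest library was NONO KO CT22 replicate 2 for 3 genes and WT CT22 replicate 1 for 3 genes. This library was singled out after its values were seen, so these figures are a description.

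**Figure D2:**
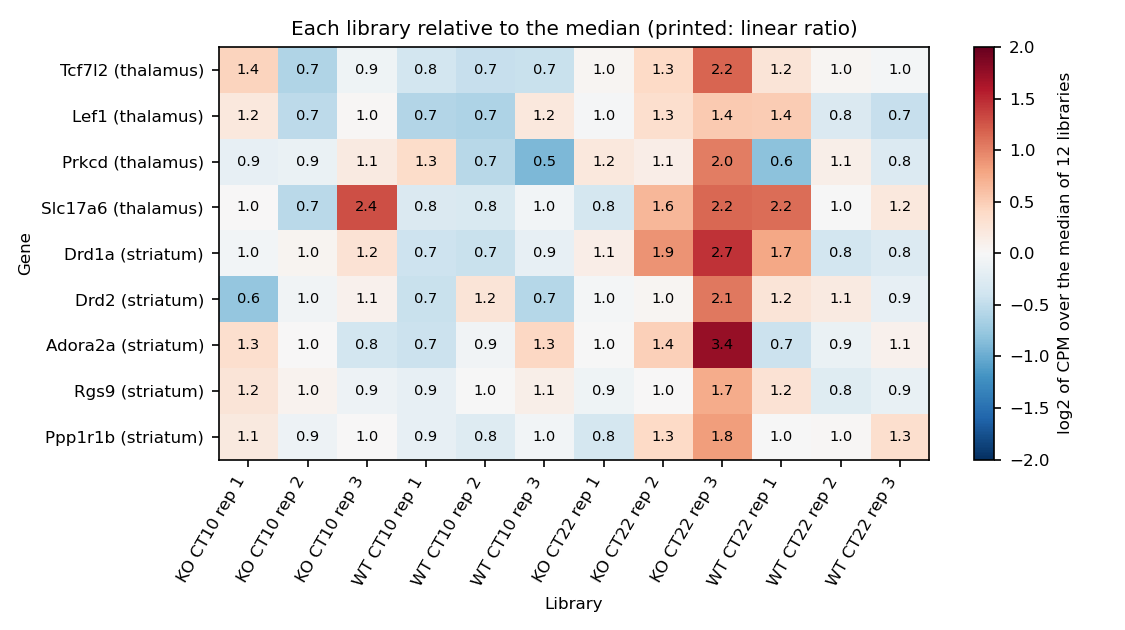
Each gene (rows) in each library (columns, by group with NONO KO first) relative to the gene's median over 12 libraries; the colour scale is log2 and the printed figure is the linear ratio. The column of NONO KO CT22 replicate 3 is above 1 for all 9 genes, and Slc17a6 is also high in the library labelled NONO KO CT10 replicate 3 and in WT CT22 replicate 1.

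The first comparison asked whether the 9 genes differed between NONO KO and WT over both labels. None passed the threshold of 0.05, where 3 of 14131 genes (0.0212%) did. DESeq2 called 22 genes and none of the 9. At an unadjusted p under 0.05 stood 2 of the 9, Tcf7l2 and Drd1a, where 6.35% of all genes did. All 9 log2 changes were above 0, with medians of 0.43 for the thalamic and 0.22 for the striatal genes, while 51.8% of all genes were above 0, with a median of 0.01. Without NONO KO CT22 replicate 3, 8 of 9 were above 0, with medians of 0.23 and 0.05. In that fit Prkcd stood at 0.34, compared with 0.52 over all libraries, Slc17a6 at 0.16, compared with 0.38, and Adora2a at 0.18, compared with 0.55. No gene of the 9 had every NONO KO library above every WT library over both labels, as 0.184% of genes did. In the authors' deposited table the log2 ratios of KO over WT ran from 0.17 for Drd2 to 0.62 for Drd1a, and the lowest adjusted p-value was 0.633, for Prkcd.

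Within CT10, none of the 9 passed (1 gene of 14131 did, 0.00708%; DESeq2 called 3), none had an unadjusted p under 0.05 (3.09% of genes), and 8 of 9 log2 changes were above 0 (51.5% of genes). They ran from −0.03 for Drd2 to 0.70 for Slc17a6, with medians of 0.33 for the thalamic and 0.10 for the striatal genes.

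Within CT22, 0 of the 9 passed (2 genes of 14131, 0.0142%; DESeq2 called 30). An unadjusted p under 0.05 was found for 3 of 9, Adora2a, Drd1a and Prkcd, beside 10.9% of all genes. All 9 log2 changes were above 0 (50.6% of genes), with medians of 0.41 for the thalamic and 0.36 for the striatal genes. Without NONO KO CT22 replicate 3 the medians were 0.12 and −0.04, and 5 of 9 were above 0. Slc17a6, Drd2, Rgs9 and Ppp1r1b changed sign in that fit, at −0.37, −0.11, −0.04 and −0.10. Prkcd (0.45), Drd1a (0.35), Adora2a (0.34), Lef1 (0.14) and Tcf7l2 (0.10) kept theirs at smaller sizes. Without the 2 libraries that go against their time label the CT22 differences of Tcf7l2 (0.77), Prkcd (0.95), Drd1a (1.08) and Adora2a (1.44) were larger, with the lowest edgeR adjusted p at 0.524. That fit leaves replicates 2 and 3 in the NONO KO CT22 group, so NONO KO CT22 replicate 3 weighs more in it.

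**Figure D3:**
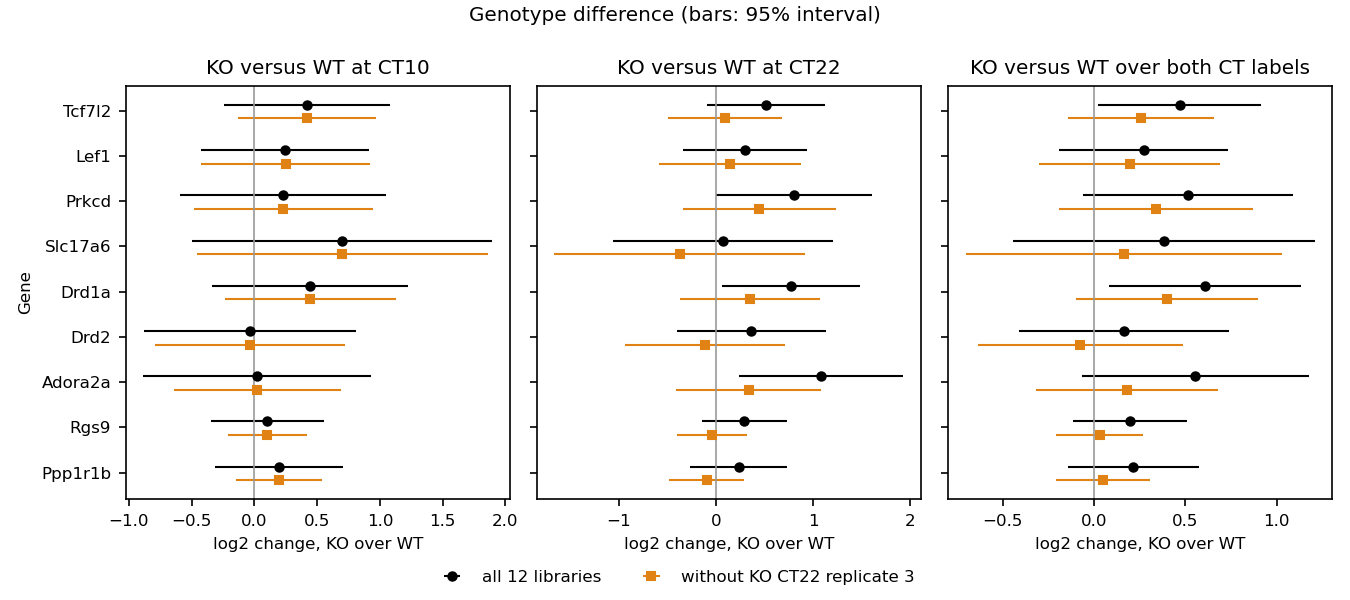
Log2 change of NONO KO over WT with its 95% interval (horizontal axes) for each gene at CT10, at CT22 and over both labels, with all 12 libraries (black) and without NONO KO CT22 replicate 3 (orange). The CT22 estimates lie further left without that library for all 9 genes, and 4 fall below 0.

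Whether the genotype difference itself differed between CT22 and CT10 was tested as an interaction. None of the 9 passed, as none of 14131 genes did (0.0%; DESeq2 called 0), and none had an unadjusted p under 0.05 (6.09% of genes). The difference was above 0 for 8 of the 9, beside 49.9% of genes, with medians of 0.08 for the thalamic and 0.33 for the striatal genes. It was above 0 for 2 of the 9 without NONO KO CT22 replicate 3, Prkcd (0.22) and Adora2a (0.31), beside 47.5% of genes, with medians of −0.21 and −0.09. With all libraries Adora2a had the lowest p (difference of log2 changes 1.06, SE 0.58, edgeR adjusted p = 0.737).

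Between the time labels over both genotypes, 0 of the 9 passed (0 of 14131 genes, 0.0%; DESeq2 called 1). Tcf7l2 was 0.57 higher at CT22 than at CT10 on the log2 scale (SE 0.21, edgeR adjusted p = 0.991) and Drd1a 0.65 higher (SE 0.25, edgeR adjusted p = 0.991), the 2 of 9 with an unadjusted p under 0.05, beside 3.89% of all genes. All 9 changes were above 0 (48.9% of genes), from 0.10 for Rgs9 to 0.65 for Drd1a, with medians of 0.37 for the thalamic and 0.39 for the striatal genes. No gene of the 9 had every CT22 library above every CT10 library, as 0.0849% of genes did. Without NONO KO CT22 replicate 3 8 of 9 were above 0, with medians of 0.22 and 0.15. Tcf7l2 then stood at 0.36 and Drd1a at 0.44, Adora2a at 0.02, compared with 0.39 over all libraries, and Rgs9 at −0.06. Without the 2 libraries against their label they were 0.67 and 0.86, and Slc17a6 stood at 0.96, with a lowest adjusted p over the 9 of 0.171, for Ppp1r1b. In that fit NONO KO CT22 replicate 3 was 1 of the 2 libraries of its group.

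The genes varied together across libraries, within and between the 2 tissues. Pearson's r of log2 CPM over 12 libraries was above 0 for all 36 pairs, from 0.077 for Lef1 with Prkcd to 0.809 for Tcf7l2 with Ppp1r1b, with a median of 0.577. After adjustment over 36 pairs, 8 passed by r in a permutation test and 0 by Spearman's rho. The pair of Lef1 and Drd1a, a thalamic and a striatal gene, had r = 0.800 (permutation p = 0.00105, adjusted p = 0.0318) and rho = 0.825 (permutation p = 0.00151, adjusted p = 0.0544). It held r = 0.740 without the 2 libraries farthest from the Lef1 median, and r = 0.770 without NONO KO CT22 replicate 3. Slc17a6 and Drd1a had r = 0.748 (permutation p = 0.00602, adjusted p = 0.0354) and rho = 0.580 (permutation p = 0.0522, adjusted p = 0.171), with r = 0.738 without the 2 farthest libraries. Adora2a and Ppp1r1b, both striatal, had r = 0.795 (permutation p = 0.00658, adjusted p = 0.0354) and rho = 0.566 (permutation p = 0.0588, adjusted p = 0.176), with r = 0.253 without the 2 farthest libraries, so that relation rests on those. The other 5 pairs past the threshold were Tcf7l2 with Lef1, Drd1a and Ppp1r1b, Lef1 with Rgs9, and Drd1a with Rgs9. These correlations pool the 4 groups. On deviations from the 4 group means 7 pairs passed, and 3 of the 8 no longer did: Tcf7l2 with Lef1 (r = 0.613, permutation adjusted p = 0.113), Tcf7l2 with Drd1a (r = 0.580, permutation adjusted p = 0.126) and Lef1 with Rgs9 (r = 0.638, permutation adjusted p = 0.0939).

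Over all 36 pairs the median r was 0.244 without NONO KO CT22 replicate 3, and 0 pairs then passed. No pair passed without WT CT10 replicate 1 either, and 1 passed without NONO KO CT22 replicate 2. Within genotypes the median r was 0.706 over the 6 NONO KO libraries and 0.124 over the 6 WT libraries, a difference that was not tested. The 6 NONO KO libraries include NONO KO CT22 replicate 3, and their median was not computed without it. Among the 10 striatal pairs those medians were 0.838 and 0.0763, and among the 6 thalamic pairs 0.661 and 0.230.

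**Figure D4:**
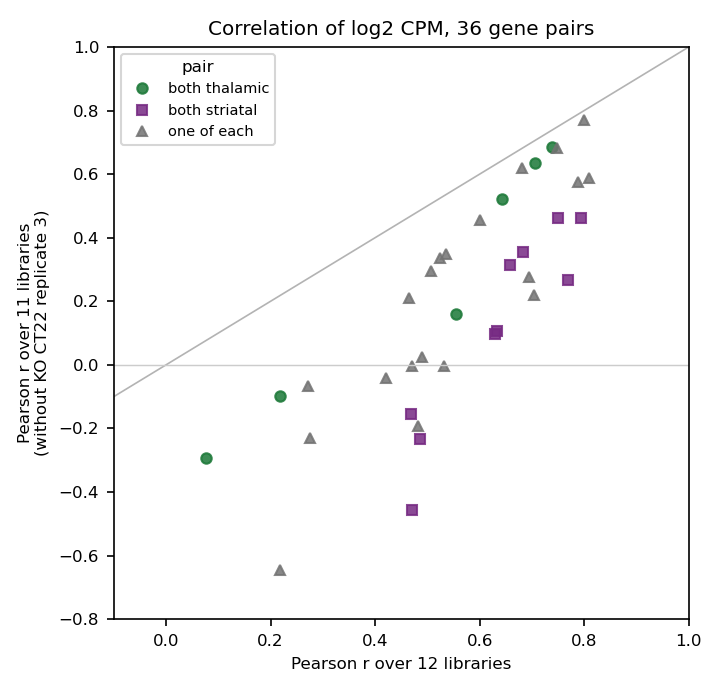
Pearson's r of log2 CPM for the 36 gene pairs over 12 libraries (horizontal axis) and over 11 libraries without NONO KO CT22 replicate 3 (vertical axis); the diagonal marks equal values. All points are above 0 on the horizontal axis, with a median of 0.577, and the median on the vertical axis is 0.244.

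Genes most like each one in pattern were taken by Pearson's r over the 12 libraries among 13067 genes of at least 2 CPM, as a description. The closest to Slc17a6 was Chrna4, a nicotinic acetylcholine receptor subunit (r = 0.964, and 0.956 without NONO KO CT22 replicate 3). Tcf7l2 was nearest to Rab11fip1 (r = 0.905), Lef1 to Ehd4 (r = 0.930), Prkcd to Slc25a24 (r = 0.817), Drd1a to L3mbtl1 (r = 0.931), Drd2 to L3mbtl3 (r = 0.877) and Rgs9 to Aph1c (r = 0.922). For Adora2a it was Msx1, a homeobox factor (r = 0.881), which stood at 24.8 CPM in NONO KO CT22 replicate 3, against a median of 8.86 CPM in the other libraries. For Ppp1r1b it was Pcp4l1 (r = 0.892), at 86.4 CPM in that library against a median of 54.6 CPM in the others. To the mean of the 4 thalamic genes, Amotl1 (r = 0.932) and Synpo2 (r = 0.927), itself a thalamic marker, were nearest, and to the mean of the striatal genes Nhs (r = 0.937).

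Rgs9 makes a long and a short product that part near the end of the coding sequence, the long one known from striatum and the short one from retina. Their sequences at the fork are shown because the deposited transcripts allow the forms to be told apart. The last 30 shared coding bases are in lower case and end at chr11:109235900 (GRCm38, minus strand), and the bases of each form that follow are in capitals.
NM_011268: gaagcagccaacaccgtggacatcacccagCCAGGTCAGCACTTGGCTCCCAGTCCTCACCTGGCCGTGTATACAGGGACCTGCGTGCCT
NM_001165934: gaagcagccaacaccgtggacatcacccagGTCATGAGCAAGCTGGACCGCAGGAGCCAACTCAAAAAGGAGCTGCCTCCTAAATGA

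NM_011268 has 675 codons before its stop and 630 coding bases of its own. NM_001165934 has 484 codons and 57 coding bases of its own, which are shown to the stop. The share of Rgs9 counts placed on NM_011268 was 39.1%, 48.3% and 46.5% in NONO KO at CT10 and 38.6%, 34.2% and 41.6% in WT at CT10. At CT22 it was 41.6%, 45.8% and 48.9% in NONO KO and 46.1%, 36.9% and 47.3% in WT. The groups overlapped, and the means were 45.03 ± 3.87% in NONO KO and 40.8 ± 5.17% in WT (SD, n = 6 each), with an exact two-sided permutation p of 0.134 (adjusted p = 0.818 over 9 transcripts). Corrected for transcript length, the form made up 71.4 ± 3.26% of Rgs9 in NONO KO and 67.7 ± 4.66% in WT. Since the deposited NM_001165934 is 7629 bases long and NM_011268 2486, the shares depend on how reads common to both were divided. The 8 deposited transcripts of Tcf7l2 were each listed at 0 in 4 to 11 libraries and none differed in share between genotypes by that test, the lowest adjusted p being 0.818.

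Other markers of the 2 tissues were read from lists. Of 21 further thalamic and habenular genes, 17 were tested, 0 passed in either direction, and 14 were higher in NONO KO over both labels, with a median log2 change of 0.25, or 0.13 without NONO KO CT22 replicate 3. The 4 most abundant were Calb2, a calcium-binding protein (40.3 ± 9.0 CPM in NONO KO, 47.0 ± 9.24 CPM in WT), 3110047P20Rik (41.3 ± 5.22 CPM in NONO KO, 34.8 ± 5.10 CPM in WT), Ntng1, an axon guidance molecule (33.2 ± 11.2 CPM in NONO KO, 26.5 ± 6.97 CPM in WT), and Plekhg1 (30.7 ± 6.09 CPM in NONO KO, 28.4 ± 4.73 CPM in WT; SD, n = 6 each). Of the 17, 11 were highest in NONO KO CT22 replicate 3. Calb2 is also in the list of hilar mossy cell markers used below. Of 21 further striatal genes, 16 were tested, 0 passed, and 10 were higher in NONO KO, with a median of 0.04, or 0.00 without that library. Its 4 most abundant were Gng7, a G protein subunit of the cAMP pathway, at 254 ± 28.4 CPM in NONO KO and 292 ± 12.6 CPM in WT, Pde1b, a calcium-dependent phosphodiesterase, at 153 ± 21.0 CPM in NONO KO and 145 ± 11.7 CPM in WT, Adcy5, an adenylyl cyclase, at 129 ± 20.4 CPM in NONO KO and 138 ± 11.7 CPM in WT, and Pde10a, a phosphodiesterase of medium spiny neurons, at 96.8 ± 18.6 CPM in NONO KO and 74.1 ± 11.6 CPM in WT. Of the 16, 8 were highest in NONO KO CT22 replicate 3. Over all genes tested, 0.0212% passed, 51.8% were higher in NONO KO and 11.2% were highest in that library.

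A pair of markers, chosen after their values were seen, stood apart in that library. Six3, a homeobox factor of striatal neurons, was at 9.06 CPM there and at no more than 1.03 CPM in the other 11 libraries. Shox2, a thalamic homeobox factor, was at 1.45 CPM there and at no more than 0.15 CPM elsewhere. Six3 and Shox2 were both too low to be tested. Other markers were low there, also named after their values were seen. Gng7 was at its lowest of the 12, 213 CPM against a median of 285 CPM in the other 11, and Rasd2 stood at 61.0 CPM against 71.3, Pdyn at 3.26 against 4.26 and the habenular Chrnb3, too low to be tested, at 0.36 against 0.59.

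Partners in the same pathways did not pass either. Of 26 dopamine and adenosine signalling genes tested, 12 were higher and 14 lower in NONO KO, with a median log2 change of −0.01. This list shares Gng7, Pde1b, Adcy5 and Pde10a with the striatal list, so the lists are not independent. Gnas, which encodes the stimulatory G protein subunit, stood at 1439 ± 77.6 CPM in NONO KO and 1490.2 ± 98.7 CPM in WT (SD, n = 6 each). Of 23 TCF/LEF and Wnt genes, 16 were higher and 7 lower, with a median of 0.08, and Ctnnb1, which encodes beta-catenin, stood at 626 ± 43.8 CPM in NONO KO and 608 ± 33.9 CPM in WT. Of 10 genes for other vesicular glutamate transporters and protein kinase C isoforms, 6 were higher and 4 lower.

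Markers of neighbouring cell types also varied between libraries. Hippocampal pyramidal and granule cell markers (21 genes) had their lowest scores, as the mean log2 CPM deviation from the 12-library mean, in WT CT22 replicate 1 (−0.34) and NONO KO CT22 replicate 3 (−0.30), and 1 of the 21 was highest in that NONO KO library. Their summed level was 2341 to 2739 CPM in NONO KO and 2534 to 2794 CPM in WT. Over all genes tested, 11.2% had their highest value in NONO KO CT22 replicate 3. Choroid plexus markers were highest in NONO KO CT22 replicate 3 for 14 of 16 genes, with a summed level of 234 to 5353 CPM in NONO KO and 341 to 2197 CPM in WT. NONO KO CT10 replicate 1 was nearly as high in them, at 4908 CPM (score 2.27, compared with 2.61 in NONO KO CT22 replicate 3). Its scores were 0.08 for the 4 thalamic and −0.07 for the 5 striatal genes. For the other thalamic and habenular genes it scored 0.14, second to NONO KO CT22 replicate 3 (0.64), and for the other striatal genes −0.17. Next in choroid plexus markers came WT CT22 replicate 3 (1.04) and WT CT10 replicate 3 (0.94). In both, the 4 thalamic and the 5 striatal genes scored below 0. Meningeal markers were highest in NONO KO CT22 replicate 3 for 10 of 15 genes, with sums of 186 to 667 CPM in NONO KO and 130 to 426 CPM in WT. Neocortical markers were highest in NONO KO CT22 replicate 3 for 1 of 17, and their score was highest in the library labelled NONO KO CT10 replicate 3 (0.38) and in WT CT22 replicate 1 (0.35), both among the 3 libraries high in Slc17a6. Among cell types known to carry single genes of the 9, hilar mossy cell markers were highest in NONO KO CT22 replicate 3 for 2 of 11, endothelial markers for 2 of 15, differentiating oligodendrocyte markers for 1 of 10 and microglial markers for 0 of 12. By score that library was the highest of the 12 in hilar mossy cell markers (0.15), second to WT CT22 replicate 1 in endothelial markers (0.19, compared with 0.25), at 0.10 in differentiating oligodendrocyte markers and the lowest in microglial markers (−0.22). The hilar mossy cell list includes Drd2, itself 1 of the 9 and highest in that library. Its count and score are therefore not independent of the 9 genes. No list had a gene at 0 in every library, and the part of these cell types in the results above was not tested. Without NONO KO CT22 replicate 3 and WT CT22 replicate 1, the log2 change over both labels was 0.63 for Drd1a, 0.30 for Tcf7l2, 0.23 for Prkcd and 0.12 for Adora2a.

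**Figure D5:**
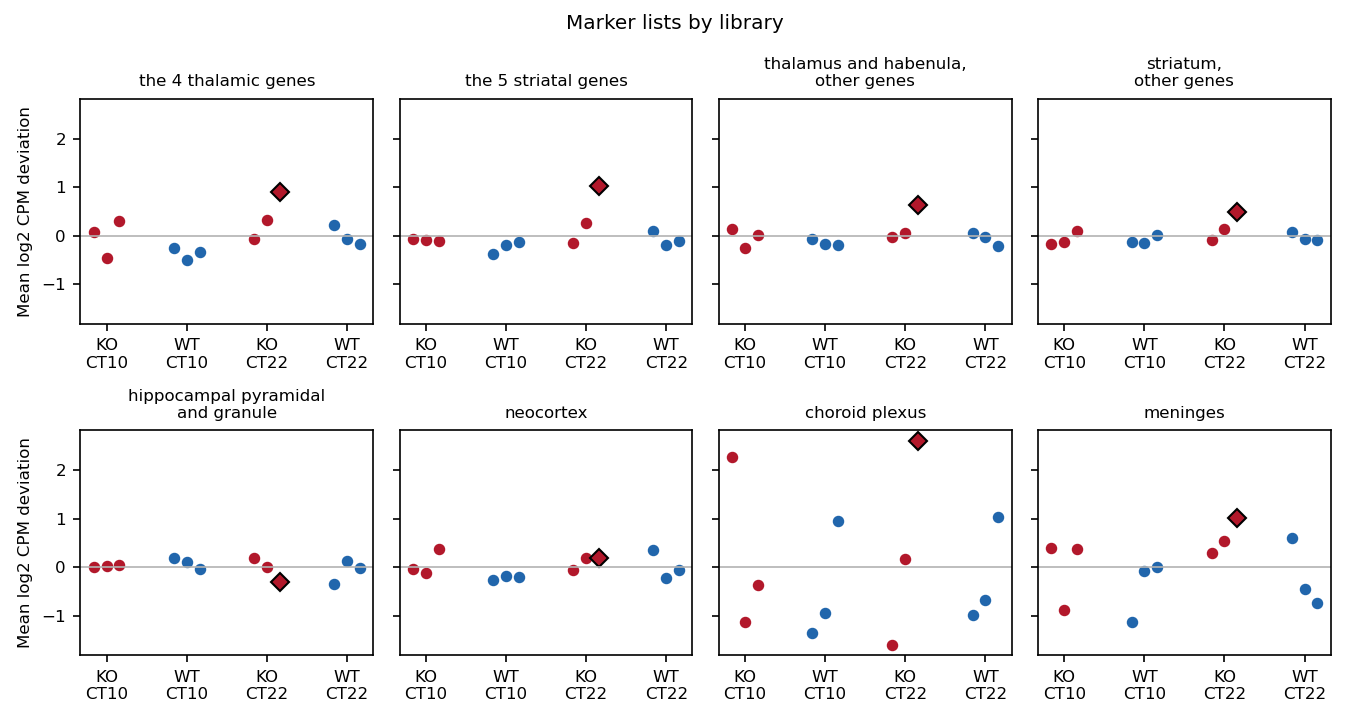
Mean log2 CPM deviation from the 12-library mean (vertical axes) of 8 marker lists in every library, by group: NONO KO in red, WT in blue, with NONO KO CT22 replicate 3 as a diamond. That library is highest in the lists of the 4 thalamic genes (0.91), the 5 striatal genes (1.03), the other thalamic genes (0.64) and the other striatal genes (0.49). It is also highest in the choroid plexus (2.61) and the meninges (1.02), and second lowest in hippocampal markers (−0.30). NONO KO CT10 replicate 1 is nearly as high in the choroid plexus list (2.27).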

How the data were processed

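Hippocampal polyadenylated RNA was sequenced as stranded libraries, per the labels' protocols, which name paired and single reads without saying which library had which. The submitters' processing notes name build mm10 and the tools edgeR 3.0.6, RSEM 1.2.5, TopHat 1.3.3 and FastQC. The deposited files hold estimated counts, TPM and FPKM for 30383 transcripts, per the file headers, and FPKM was not used here. Per gene, the authors' deposited table lists adjusted and unadjusted p-values beside a log2 ratio, and a normalised signal for each library, with 0 columns left unmatched.

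Estimated counts were summed per gene symbol, rounded and filtered with filterByExpr (minimum count 10). A robust quasi-likelihood model of 4 group means was fitted over all genes in R 4.3.3 with edgeR 4.0.16, TMM scaling and Benjamini-Hochberg adjustment (threshold 0.05); log2 CPM used a prior count of 2. DESeq2 1.42.0, other scalings and filters, and leaving out libraries were tried as alternatives. In simulated data with 100 genes changed 1.5-fold and 100 changed 2-fold between NONO KO and WT over both labels, 80% and 99% were recovered, with 13 false calls among 192 over 14029 genes. The simulated spread was the trend over genes of like level, and the changed genes had means above 2 CPM. Drd2 lay below that, at a mean of 1.82 CPM, and all 9 genes spread more than the median of genes of like level. The recovery rates therefore do not carry over to the 9 genes. Correlations used 100000 permutations. Symbols, groups and replicate numbers come from the files and titles. The 9 genes and the marker lists were chosen with earlier results of these data known. All 9 genes are named. From each list at most the 4 most abundant genes by mean CPM were named, and for likeness the nearest by r; Six3, Shox2, Rasd2, Pdyn and Chrnb3 were chosen after their values were seen.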

Additional observations from a re-analysis of the deposited data

Results flagged for a closer look

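Within each genotype, the highest and the lowest of the 6 libraries were compared with the others for each gene by Dixon's test. Of 18 groups, 6 held a library whose gap to its neighbour was too large a part of the range at the 95% level, where chance flags about 1 in 20 independent groups. The 18 groups are not independent, as the genes vary together over the same libraries, so the 6 cannot be weighed against that rate. Each group also pools both time labels. In NONO KO, replicate 3 at CT22 stood apart for Prkcd (67.3 CPM), Drd2 (3.62 CPM), Adora2a (8.09 CPM) and Rgs9 (38.5 CPM). In WT, replicate 1 at CT22 stood apart for Slc17a6 (21.4 CPM) and Drd1a (7.0 CPM).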

How the results depend on the processing

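Over 22 alternatives, 882 changes of the 9 genes were recomputed: 842 kept their direction, 40 did not and 0 passed the threshold (lowest adjusted p 0.132). The cause of each shift below was not tested. The count of genes called over both labels was 22 with DESeq2, 10 without the low count filter, 1 with the replicate number as a block, 1 without the libraries labelled NONO KO CT10 replicate 3 and NONO KO CT22 replicate 1 (alternative A, chosen after seeing the data), 8 without NONO KO CT22 replicate 3 and WT CT22 replicate 1 (alternative B, likewise), and 1 to 8 leaving out each library. At CT10 it was 3 with DESeq2 and 4 with CT10 libraries alone. At CT22 it was 30 with DESeq2, 1 with the block, 1 with CT22 libraries alone, 1 under A, and 1 to 4 leaving out each library. For CT22 against CT10 it was 1 with DESeq2 and 9 under A. Pairs of genes past the threshold numbered 0 to 13 leaving out each library.

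Reversed log2 changes over both labels were Drd2 at −0.029 under B. At CT10, Slc17a6 was −0.00546 under A. At CT22, Slc17a6 was −0.014 with the block, and under B Drd2 was −0.022 and Ppp1r1b −0.16. The difference between labels was 0.42 for Slc17a6 under A, and −0.23 for Tcf7l2 and −0.36 for Ppp1r1b under B. For CT22 against CT10, Slc17a6 was −0.000275 and Rgs9 −0.15 under B. The same numbers did not pair the libraries (correlations of deviations −0.237 to 0.328).

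Leaving out each library, changes that crossed 0 ran as follows. Over both labels Drd2 ran from −0.074 to 0.33. At CT10 Adora2a ran from −0.18 to 0.25, Drd2 from −0.23 to 0.29 and Slc17a6 from −0.0043 to 1.00. At CT22 Drd2 ran from −0.11 to 0.60, Ppp1r1b from −0.10 to 0.50, Rgs9 from −0.040 to 0.46 and Slc17a6 from −0.37 to 0.48. The difference between labels ran from −0.092 to 0.78 for Drd1a, −0.078 to 0.64 for Drd2, −0.25 to 0.40 for Lef1, −0.29 to 0.30 for Ppp1r1b, −0.14 to 0.36 for Rgs9, −1.07 to 0.074 for Slc17a6 and −0.32 to 0.39 for Tcf7l2. For CT22 against CT10 Rgs9 ran from −0.060 to 0.19. Depth limits Drd2 and Adora2a most, at 8 to 30 and 14 to 67 counts a library.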
